A study of Arabidopsis thaliana with 2 samples.

Results

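The 10 genes described here are the nuclear genes for regulators of chloroplast gene expression and greening: the 6 sigma factors SIG1 (AT1G64860), SIG2 (AT1G08540), SIG3 (AT3G53920), SIG4 (AT5G13730), SIG5 (AT5G24120) and SIG6 (AT2G36990), and 4 greening regulators, GLK1 (AT2G20570), GLK2 (AT5G44190), GNC (AT5G56860) and CGA1 (AT4G26150). They were picked by AGI locus number, and every region of LHY occupancy was taken whose midpoint lay inside the gene or within 2000 bp of either end. The 10 genes stand among 27444 nuclear protein-coding genes of the gene table, and 23 of the 14718 deposited regions met this rule.

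Occupancy was measured by chromatin immunoprecipitation followed by sequencing (ChIP-seq), with an antiserum against full-length LHY, in whole Arabidopsis thaliana seedlings of ecotype WS, harvested at an age of 2 weeks and 2 h after dawn. One library came from wild-type plants and another from lhy-21, a line with LHY knocked out, and each library was a pool of 9 immunoprecipitated samples. The deposited list holds regions where reads were over-represented in wild-type over lhy-21 chromatin, each with a score given by the authors. With 1 library per genotype there is no replicate check, no spread and no test for any value below, and a gene without a region is not thereby shown to be unbound.

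Chloroplasts keep a small genome of their own, and much of it is transcribed by a bacterial-type polymerase, PEP, whose core is encoded in the plastid. PEP finds its promoters through sigma factors, which are encoded in the nucleus and imported, so that the nucleus can set which plastid genes are read. GLK1 and GLK2 are GARP-family transcription factors that activate nuclear genes of chlorophyll synthesis and light harvesting, and GNC and CGA1 are paralogous GATA factors that promote chlorophyll content and chloroplast development. LHY is a MYB-type repressor of the circadian clock that peaks around dawn.

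Regions were found at 9 of the 10 genes, where 52.3% of all nuclear protein-coding genes had at least 1 region by the same rule. All 6 sigma factor genes, both GLK genes and GNC had a region, and CGA1 had none. The sigma factor genes held 13 regions, the GLK genes 7 and GNC 3. The genes span 1807 to 3566 bp, with a median length of 2790 bp against 2078 bp over all genes. Among the 11804 protein-coding genes within that range of lengths, 57.2% had a region.

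The score, which ranks regions within the list, differed widely between the genes. By its highest score, GLK2 came first at 60.4, followed by SIG2 at 46.1, SIG5 at 31.1, SIG4 at 23.3 and GNC at 18.8. GLK1 at 14.0, SIG3 at 13.5 and SIG1 at 13.4 lay close together, and SIG6 was last at 6.63. The median of these 9 scores was 18.8, and over all 14348 genes with a region the median highest score was 15.7, with quartiles of 7.97 and 33.8. Thus 5 of the 9 genes lay above that median, and GLK2 and SIG2 lay above the upper quartile. With a window of 1000 bp these medians were 14.0 and 14.2, so the order of the medians depended on the window. The order of the genes did too, since the highest score of SIG5 was 6.63 with windows of 1000 and 500 bp, and with 500 bp those of GNC and SIG6 were 3.82 and 3.35. No spread is available to say which neighbours in this order differ.

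**Figure D1:**
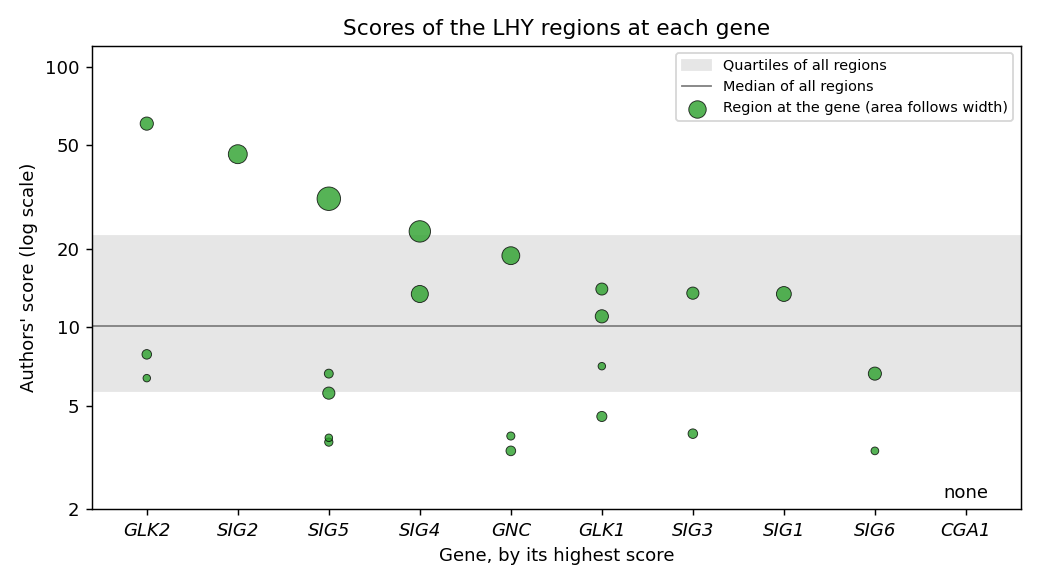
Authors' score (log axis) of each of the 23 regions, by gene in order of the highest score. The area of a point follows the width of the region, and the band and line show the quartiles (5.70 and 22.3) and median (10.1) of all 14718 regions. GLK2, SIG2, SIG5 and SIG4 each have 1 region above the band, and most of the weak regions are narrow.

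SIG5 responds to blue light and stress and drives the psbD promoter, and it is known for carrying circadian timing into the plastid. It had 5 regions, the most of the 10 genes, a number reached by 1.14% of all genes. The strongest scored 31.1 (rank 2533 of 14718) and lay on chromosome 5 from 8161138 to 8162150 (TAIR9). At 1013 bp it was also the widest of the 23, and its midpoint was 1301 bp beyond the high-coordinate end of SIG5. That midpoint lay only 284 bp from AT5G24130, so SIG5 was not the nearest gene to it. The region reached into AT5G24130, whereas its nearer edge was 795 bp from SIG5.

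The other 4 regions of SIG5 were weak. One inside the gene, 298 bp from the low-coordinate end, scored 5.58. The remaining regions scored 3.62, 6.63 and 3.76 and gathered around the high-coordinate end, with midpoints 91 bp inside, 99 bp outside and 328 bp outside. By their midpoints, these regions were also within 2000 bp of AT5G24130, at 1676, 1485 and 1257 bp. They were separated by gaps of 55 and 103 bp, and joining regions within 200 bp of each other left 3 regions at SIG5. When a region counted only for its nearest gene, the highest score of SIG5 was 6.63.

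SIG2 guides PEP to plastid tRNA genes, among them that of the tRNA for glutamate from which chlorophyll synthesis starts. It had a single region, on chromosome 1 from 2706664 to 2707322, with a score of 46.1 (rank 1489) and a width of 659 bp. The region overlapped the high-coordinate end of SIG2, and its midpoint was 133 bp outside. The same midpoint lay inside NPQ1, the violaxanthin de-epoxidase gene of the xanthophyll cycle that protects leaves from excess light. Which of the adjoining genes the region belongs to was not determined, and counted for the nearest gene alone SIG2 had no region. By that count 8 of the 10 genes had one, against 34.4% of all genes.

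SIG4, a sigma factor linked to transcription of the plastid ndhF gene, had 2 regions on the high-coordinate side. The stronger scored 23.3 (rank 3518), was 843 bp wide and spanned the gene end, on chromosome 5 from 4430531 to 4431373, with its midpoint 51 bp outside. It was also within 2000 bp of AT5G13720 and ZIF1, at 1657 and 1345 bp. The weaker scored 13.4 and was centred 1090 bp outside SIG4 but only 305 bp from ZIF1, a transporter gene of zinc tolerance. Together with the SIG5 regions, those of SIG4 covered the largest share of their window among the 10 genes, 23.7% for SIG4 and 23.1% for SIG5.

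SIG1, SIG3 and SIG6 had weaker regions. SIG1, a sigma factor whose phosphorylation adjusts transcription of photosystem genes, had 1 region at a score of 13.4, on chromosome 1 from 24097595 to 24098002. Its midpoint was 62 bp inside the low-coordinate end of SIG1 and 65 bp outside AT1G64850. At 408 bp wide, the region reached across that end of SIG1 into AT1G64850. SIG3, which is needed for transcription of psbN, had a region at 13.5 centred 70 bp beyond its high-coordinate end, on chromosome 3 from 19963914 to 19964187, and another at 3.90. Both midpoints fell inside a non-coding RNA gene, AT3G00910, and the weaker was also 1714 bp from AT3G53930.

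SIG6 acts broadly in early chloroplast development of seedlings. It had 2 regions on the low-coordinate side, at scores of 6.63 and 3.35 and with midpoints 620 and 265 bp outside the gene. The first lay on chromosome 2 from 15536447 to 15536762. Both scores were below the median of all regions, 10.1, and both midpoints were also within 2000 bp of ROT4, a gene for a small peptide that limits leaf growth. Regions above that median were left at 8 of the 10 genes, all but SIG6 and CGA1, against 34.5% of all genes.

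**Figure D2:**
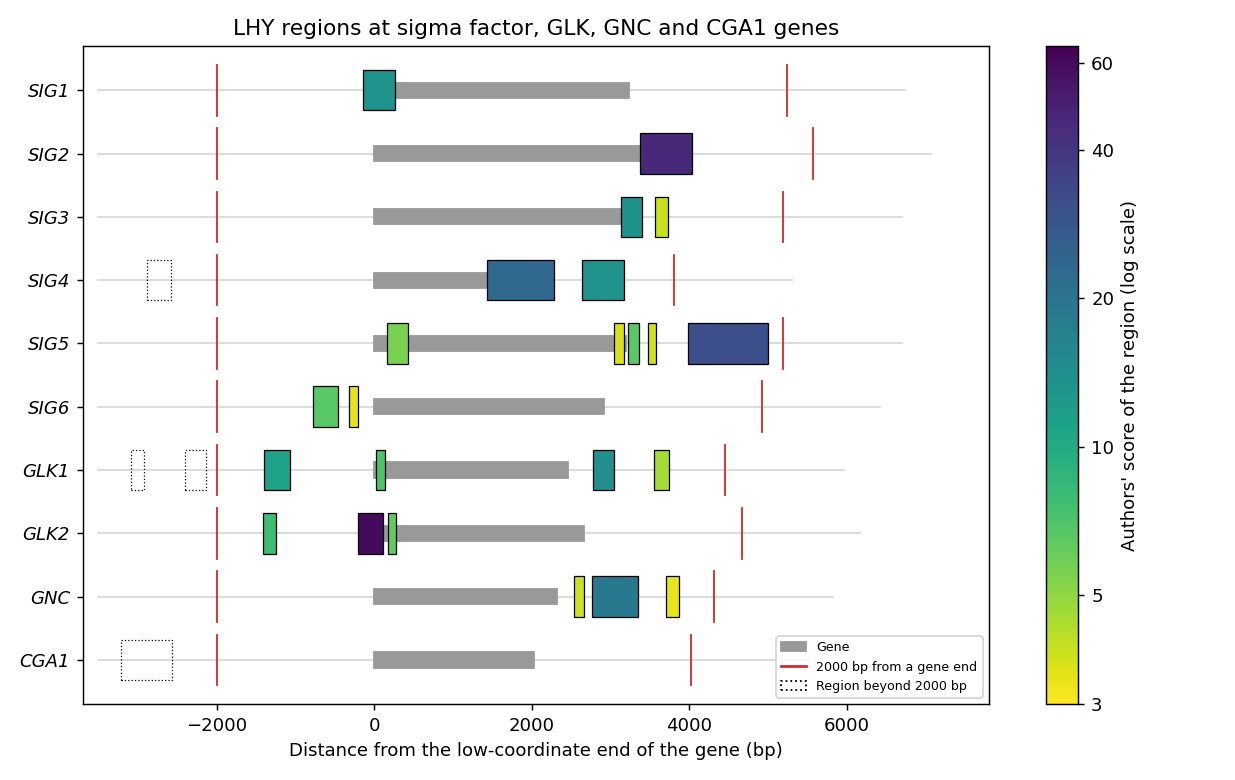
Position of each region (boxes, coloured by the authors' score on a log scale) relative to the low-coordinate end of its gene, in bp. Grey bars are genes, red ticks mark 2000 bp from each gene end, and dotted boxes are regions beyond it. Strong boxes sit on a gene end at GLK2, SIG2 and SIG4, whereas those of SIG5 and GNC lie clear of the gene and CGA1 has no box within the ticks.

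GLK1 and GLK2 overlap in function, yet their regions differed in number and score. GLK2 had the strongest region of all 10 genes, at 60.4 (rank 922), on chromosome 5 from 17798055 to 17798375. This region was only 321 bp wide, and it covered the low-coordinate end of GLK2 with its midpoint 47 bp outside. A second region followed 58 bp away inside the gene at 6.37, and the remaining region, centred 1326 bp outside at the low-coordinate side, scored 7.86. None of the 3 had another protein-coding gene within 2000 bp.

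GLK1 had 4 regions, a number that 3.46% of all genes reached or passed, and all of them were of modest score. The strongest scored 14.0 (rank 5622), on chromosome 2 from 8858082 to 8858346, with its midpoint 456 bp beyond the high-coordinate end. The others scored 11.0 at 1233 bp on the low-coordinate side, 7.08 inside the gene 79 bp from the low-coordinate end, and 4.54 at 1192 bp on the high-coordinate side. Both regions on the high-coordinate side were also within 2000 bp of RPN1A, a subunit gene of the proteasome. The weaker of them reached into RPN1A, with its midpoint only 11 bp outside that gene. The closest of the 4 were 510 bp apart, so none was joined to another by merging within 200 bp.

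GNC and CGA1 differed in whether they had a region at all. GNC, which is induced by nitrate, had 3 regions, all on its high-coordinate side. The strongest scored 18.8 (rank 4347), was 586 bp wide and lay on chromosome 5 from 22991975 to 22992560, with its midpoint 737 bp outside the gene. It was flanked by regions at 3.82 and 3.35, centred 281 and 1468 bp outside. No other protein-coding gene was within 2000 bp of any of the 3, but the outermost midpoint lay inside the long non-coding RNA genes AT5G08635 and AT5G08645. The midpoint of the strongest region was also nearer to these non-coding genes, at 598 bp, than to GNC.

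CGA1, which is induced by cytokinin, was without a region within 2000 bp, as were 47.7% of all genes. The closest midpoint lay 2893 bp beyond its low-coordinate end, on chromosome 4 from 13249869 to 13250513, with a score of 3.01 (rank 13913). Across the 10 genes, the outermost midpoint inside the limit was the GNC region at 1468 bp, and the first beyond it was at GLK1 at 2271 bp with a score of 12.1, then at SIG4 at 2726 bp, also 12.1. A window of 3000 bp gave all 10 genes a region and 60.3% of all genes. With windows of 1000 and 500 bp the same 9 genes had a region, against 43.2% and 36.5% of all genes, and with any overlap of the region in place of its midpoint they did too, against 53.8%.

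Several regions per gene were common among the 10. At least 2 regions were found at 7 of them, against 23.6% of all genes, and at least 3 at 4 of them, against 9.34%. The mean was 2.3 regions per gene, where it was 0.901 over all genes, and regions covered 10.9% of the base pairs in these windows, against 5.25% over the windows of all genes. Longer genes have larger windows, and these counts were not adjusted for that. Merging regions within 200 bp left 17 regions at the same 9 genes, where 52.1% of all genes had a region after merging. SIG3 and SIG6 were then down to 1 each, GLK2 and GNC to 2 each and SIG5 to 3. Only SIG5 and GLK1 kept at least 3 regions. The shares of all genes with several regions after merging were not computed.

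**Figure D3:**
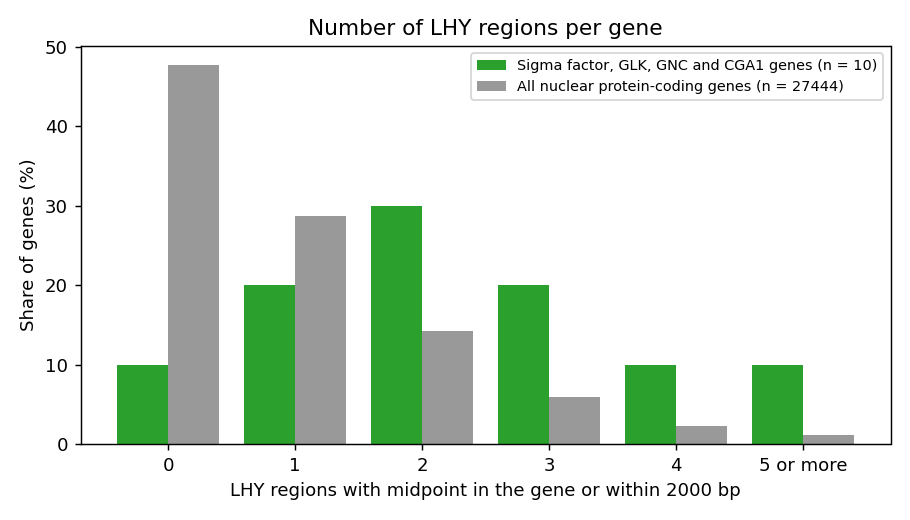
Share of genes (%) by the number of regions with a midpoint in the gene or within 2000 bp, for the 10 sigma factor, GLK, GNC and CGA1 genes (green) and all 27444 nuclear protein-coding genes (grey). Most of the 10 genes have 2 or more regions, whereas 47.7% of all genes have none and 28.7% have 1.

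Most of the 23 regions scored below the median of the list. The lowest score was 3.35, the median 7.08 and the highest 60.4, and 10 of them (43.5%) were above the median of all regions. Above the upper quartile of the list, 22.3, were 4 (17.4%), and the strongest 10%, which starts at 46.6, held only the GLK2 region, with SIG2 just under it. By that rule 1 of the 10 genes had a region, close to the 8.71% of all genes. Widths ran from 103 to 1013 bp. The 11 regions under 200 bp wide (47.8%, against 33.0% of all regions) scored at most 7.86, and the 5 regions at least 500 bp wide scored at least 13.4.

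The places of the regions along the genes were compared with those of all pairs of a gene and a region. Of the 23, 5 had their midpoint inside the gene and 10 within 500 bp outside it, while 2 lay from 500 to 1000 bp and 6 from 1000 to 2000 bp outside. The share within 500 bp outside was 43.5%, against 32.8% of all pairs. Inside the gene it was 21.7% against 21.1%, from 500 to 1000 bp 8.70% against 16.7%, and from 1000 to 2000 bp 26.1% against 29.4%. The strongest region of a gene had a median distance of 133 bp from the nearest gene end, where it was 443 bp over all genes with a region. Among the genes with several regions, the strongest was also the one nearest to a gene end in 3 of 7, close to the 44.8% of all such genes. Strand was not used here, so an end before the start of transcription cannot be told apart from one after it. In 4 of the 7 genes with several regions, SIG3, SIG4, SIG6 and GNC, all lay on 1 side outside the gene. Among all genes with several regions, 29.0% had all of theirs in 1 place, either on the same side or inside. Another protein-coding gene was within 2000 bp of 13 of the 23 midpoints (56.5%), against 79.3% of all pairs. Among protein-coding genes, the gene itself was the nearest for 19, though at SIG3 and GNC a non-coding gene lay nearer to some midpoints. The matching share of all pairs was not computed.

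Other nuclear genes of plastid transcription were set beside these by the same rule. Of 12 genes for PEP-associated proteins, which surround the polymerase core and are needed for green plastids, 5 had a region (41.7%, against 52.3% of all genes). The highest scores were 88.2 at PAP8, from a region centred inside the gene on chromosome 1 from 7573354 to 7574108, 49.2 at PAP11 and 10.9 at PAP1. PAP3, PAP4, PAP6, PAP7, PAP9, PAP10 and PAP12 had none. All 3 genes of phage-type RNA polymerases, the nuclear-encoded enzymes of plastids and mitochondria, had 1 region each, at 76.0 for RPOTMP, 14.0 for RPOTP and 11.9 for RPOTM. The 3 genes for proteins that bind sigma factors also had regions, at 39.0 for SIB1, 31.6 for DG1, a partner of SIG6, and 20.7 for SIB2.

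Relatives and regulators of the greening factors were counted likewise. All 5 other genes listed as LLM-domain B-GATA genes, the subfamily of GNC and CGA1, had a region, against 52.3% of all genes. Their highest scores were spread widely, at 98.0 for GATA17L, 25.8 for GATA16, 19.8 for GATA17, 6.92 for GATA23 and 3.50 for GATA15. With GNC and CGA1 these make 7 GATA genes examined, and CGA1 was the only one of them without a region. All 8 genes listed as regulators or partners of GLK1, GLK2, GNC and CGA1 had a region, at highest scores from 4.16 at PIF3 to 132 at GBF2. GBF2 and GBF3, bZIP factors that bind G-boxes, scored 132 and 75.3, while the related GBF1 scored 8.19, and HY5, a light-signalling factor that activates SIG5, scored 35.8. Of the list genes whose scores are given here, only RPOTP, SIB1, GATA16 and PIF3 had a strongest region without another protein-coding gene within 2000 bp. For the others, among them PAP8, RPOTMP, GATA17L, GBF2, GBF3 and HY5, the region behind the score was shared in this way. Another protein-coding gene was in reach in 79.3% of all pairs of a gene and a region. Over the 31 genes of these lists together, 24 had a region (77.4%, against 52.3% of all genes), and 15 of those 24 had a highest score above 15.7, the median of all genes with a region. The lists were chosen with earlier results known, so these counts are descriptions of the genes listed.

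**Figure D4:**
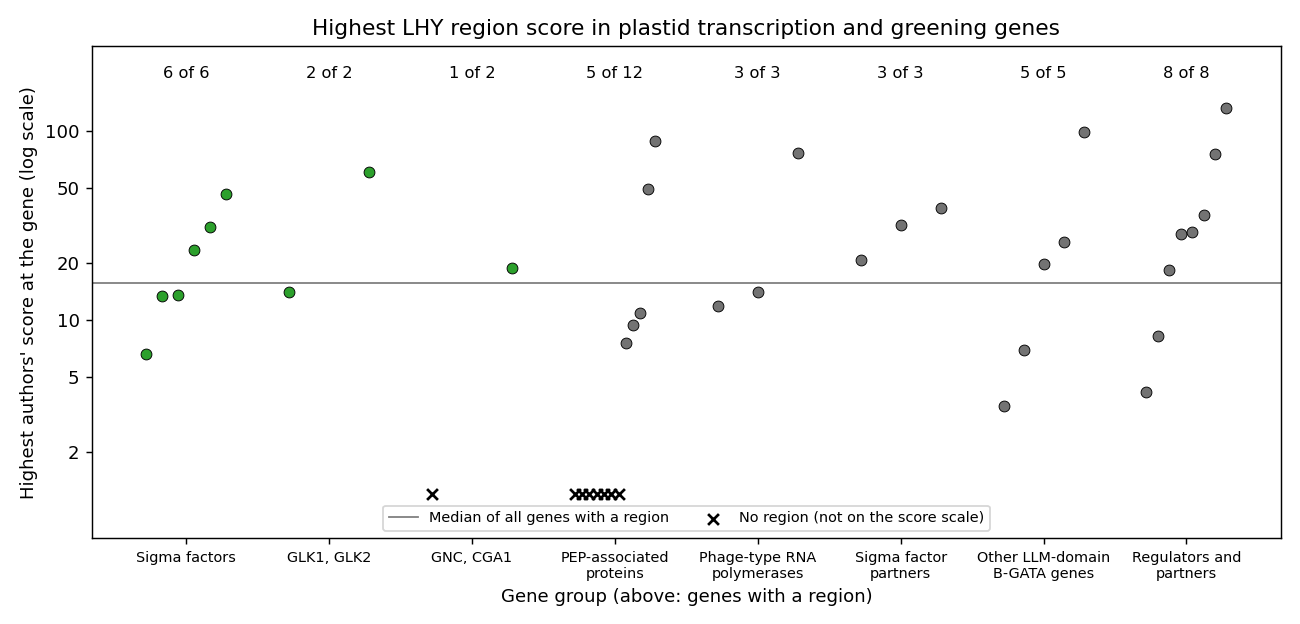
Highest authors' score (log axis) at each gene, for the sigma factor, GLK, GNC and CGA1 genes (green) and for lists of related genes (grey), with the number of genes having a region above each column. Crosses are genes without a region, placed below the score scale, and the line is the median of all genes with a region, 15.7. The PEP-associated proteins hold 7 of the 8 crosses, and the remaining cross is CGA1.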

How the data were processed

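The authors deposited 1 list of scored regions. The submitters' processing notes name Bowtie, MACS2 2.0.10.09132012 and TAIR9. Per the labels' design text, regions are those with more reads in wild-type than in lhy-21 chromatin. The scale of the authors' score, the read depth, the filters and the calling threshold are not stated in these sources, so scores were compared only within the list.

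Gene ends came from a RefSeq table of assembly TAIR10.1, whose nuclear chromosome sequences equal TAIR9. All 10 genes matched by locus number, and the table lists SIG1, SIG3, SIG5, SIG6 and GLK1 under the symbols SIGA, SIGC, SIGE, SIGF and GPRI1. Gene models may differ between annotations. Region positions are TAIR9, counted from 1, and the midpoint stands for the region since a summit was not used. Shares over all genes count each gene once. The assignment was tested on simulated data with widely spaced genes, so shared regions and the choice of the nearest gene were not tested. Python 3.11.15 and pandas 2.3.3 were used.

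The genes and lists were chosen with earlier results of these data known, so their counts are descriptions. The text names all 10 genes, every protein-coding gene that shares a region with them, and the 3 genes with the highest scores in each related list. Non-coding genes, list genes without a region, and GATA15, GATA23, GBF1 and PIF3 were named after their values were seen. Alternatives were windows of 500, 1000 and 3000 bp, any overlap, only regions above the median score, and the strongest 10% of regions. Further alternatives were merging within 200 bp, and the nearest protein-coding gene only. Promoter motifs and protein identities were not analysed here.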

Additional observations from a re-analysis of the deposited data

How the results depend on the processing

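The number of genes with a region, 9, stayed between 8 and 10 under 7 of the 8 alternatives and was 1 with the strongest 10% of regions. The number of regions, 23, was 15 with a window of 500 bp, 10 above the median score and 1 in the strongest 10%, and under the remaining alternatives it moved by less than 1.5 times. The median highest score, 18.8, was 14.0 with a window of 1000 bp, 13.5 with 500 bp, 16.4 with 3000 bp, 21.02 above the median score, 60.4 in the strongest 10% and 13.7 with the nearest gene only. In the same settings the median over all genes was 14.2, 13.2, 17.3, 26.0, 68.7 and 13.4, and with 1000 bp, 3000 bp, above the median score and in the strongest 10% the sigma factor and greening genes lay below it. Of 80 single-gene values, 64 were equal, 1 was higher, 5 were lower and 10 had no region left. The equal values include those of CGA1 where it had no region in either setting. The cause was not tested beyond the construction of each alternative. No paired analysis was possible because each genotype has 1 library. Searching motifs on the gene's strand only was not run. The authors' threshold and the unknown read depth limit which weak regions could be listed.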
